A study of Homo sapiens with 30 samples.

Results

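H3K27me3 and H3K9me3 peaks at promoters of long noncoding RNA (lncRNA) genes were described in HEK293T cells, a line derived from human embryonic kidney and transformed with viral genes, among them SV40 large T. A peak is a stretch of genome with more sequenced fragments after immunoprecipitation (ChIP) than in input chromatin, and its summit is the base with the most fragments. A peak on chromosomes 1 to 22 was taken when its summit lay within 1 kb of the 5′ end of a GENCODE lncRNA gene and more than 1 kb from the 5′ end of every protein-coding transcript. In total 4056 of 331442 peaks in 5 lists met this rule. For H3K27me3 they were 822 of 73667 peaks in cells given a control antisense oligonucleotide (NC), 805 of 58801 upon depletion of LINC00641 (ΔLINC00641) and 854 of 68848 upon SETD5-AS1 depletion (ΔSETD5-AS1). They were, for H3K9me3, 837 of 75538 in NC and 738 of 54588 upon depletion of LINC00662 (ΔLINC00662). Together they lay at 2076 of 18229 annotated lncRNA genes.

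All samples came from HEK293T cultures collected 48 hours after transfection of an antisense oligonucleotide, a short DNA-like molecule that lowers the amount of its target RNA. The NC oligonucleotide was the negative control, LINC00641 and SETD5-AS1 were each targeted with a single oligonucleotide per the track lines, and LINC00662 with a mix. Each of the 5 ChIP groups and 5 input groups had 3 replicates, which makes 30 samples, but the authors merged replicates before calling peaks. Each condition is therefore 1 list with no error between replicates, no test between conditions was made, and every interval is a 95% interval that covers counting error only. The lists correspond to an estimated depth of 34.6 M to 45.0 M fragments (M, 1e6). Peak lists hold no RNA level, so neither the depletions nor the identity of the cell line could be checked.

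Long noncoding RNAs are transcripts without a long open reading frame, and many start beside or inside protein-coding genes. H3K27me3 is written by Polycomb repressive complex 2, whose catalytic subunit is EZH2, and is best known at CpG-rich promoters of silent developmental genes. H3K9me3 is written by enzymes such as SETDB1 and SUV39H1, marks heterochromatin and repeats, and covers clusters of zinc finger genes.

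The DNA under the strongest promoter peaks of each mark is shown so that its base composition can be read beside the values. These are the 3 lncRNA genes with the largest −log10 q for H3K27me3 in NC and the first for H3K9me3, leaving out sites where input exceeded 5 times the genome-wide level. The windows are centred on the NC summit, are written 5′ to 3′ on the plus strand of GRCh37 (the coordinates of hg19), and carry CG dinucleotides in capitals. For H3K27me3 they are chr15:89148278-89148478 at LINC01586, chr12:3602273-3602473 at THCAT155 and chr3:137490609-137490809 at LINC01210.
LINC01586: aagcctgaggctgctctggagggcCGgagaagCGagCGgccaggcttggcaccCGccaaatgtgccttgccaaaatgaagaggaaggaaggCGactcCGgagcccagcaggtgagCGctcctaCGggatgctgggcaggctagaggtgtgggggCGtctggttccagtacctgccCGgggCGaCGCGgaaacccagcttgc
THCAT155: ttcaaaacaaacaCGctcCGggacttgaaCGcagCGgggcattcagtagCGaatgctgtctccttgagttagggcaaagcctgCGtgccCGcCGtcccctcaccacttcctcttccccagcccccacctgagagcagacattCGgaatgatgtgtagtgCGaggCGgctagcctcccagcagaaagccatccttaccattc
LINC01210: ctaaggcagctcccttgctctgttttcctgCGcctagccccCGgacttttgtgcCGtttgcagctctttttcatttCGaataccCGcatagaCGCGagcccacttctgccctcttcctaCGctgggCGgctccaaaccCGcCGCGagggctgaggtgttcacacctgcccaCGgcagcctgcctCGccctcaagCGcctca
For H3K9me3 the window is chr10:44139531-44139731 at ZNF32-AS1.
ZNF32-AS1: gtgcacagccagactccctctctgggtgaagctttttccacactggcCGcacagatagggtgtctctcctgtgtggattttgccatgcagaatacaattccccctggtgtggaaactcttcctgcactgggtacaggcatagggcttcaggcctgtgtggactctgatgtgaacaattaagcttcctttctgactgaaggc
The H3K27me3 windows held 13, 11 and 15 CG dinucleotides, with a GC content of 65.7%, 57.7% and 61.7%. The H3K9me3 window at ZNF32-AS1 held 1, with a GC content of 52.2%. These single windows do not stand for their lists. In 501 bp around the summit, the median ratio of observed to expected CG dinucleotides was 0.241 over H3K27me3 NC promoter peaks. It was 0.347 over those of H3K9me3 NC.

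Summits were denser beside lncRNA start sites than a few kb away. In H3K27me3 NC there were 33.4 summits per Mb (30.4 to 36.5) within 500 bp of a start site, 25.1 (22.5 to 27.8) between 500 and 1000 bp and 23.2 (22.3 to 24.0) between 1 and 5 kb, all counted over 1 kb from protein-coding starts. The values within 500 bp were 32.2 in ΔLINC00641 and 35.0 in ΔSETD5-AS1, against 19 and 21.8 between 1 and 5 kb. In H3K9me3 the density was 33.4 (30.4 to 36.5) in NC and 29.6 (26.8 to 32.6) in ΔLINC00662 within 500 bp, against 25.3 and 19.4 farther out. The whole lists averaged 27.4, 21.9, 25.6, 28.1 and 20.3 summits per Mb in the order of the groups above. In each list the density within 500 bp was thus above the average of the list, and that between 1 and 5 kb was below it. By number, 1.12% of H3K27me3 NC peaks (1.04 to 1.19%) and 1.11% of H3K9me3 NC peaks (1.04 to 1.19%) met the rule, and the sequence that meets it is 1.05% of the sequenced autosomes. The shares in ΔLINC00641, ΔSETD5-AS1 and ΔLINC00662 were 1.37%, 1.24% and 1.35%.

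**Figure D1:**
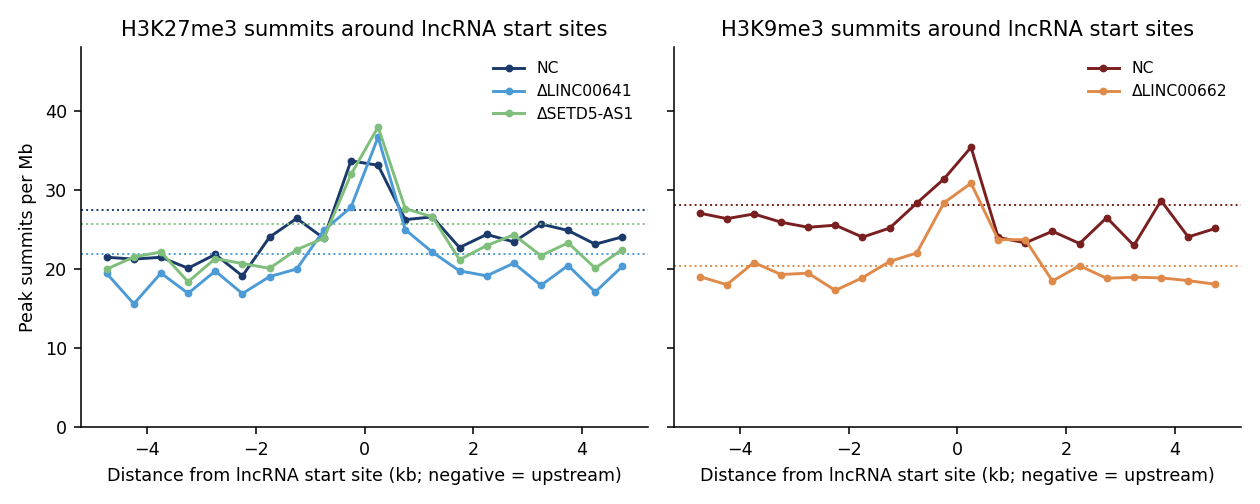
Peak summits per Mb (vertical axis) in bins of 500 bp by distance from lncRNA start sites (horizontal axis, kb, negative upstream), for the 3 H3K27me3 lists and the 2 H3K9me3 lists. Dotted lines give the average of each list on chromosomes 1 to 22. Every list has its highest bins within 500 bp of the start site, and in H3K27me3 NC these reach 33.7 and 33.1 summits per Mb.

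Most lncRNA promoter peaks were modest. The fold enrichment over input, a linear ratio given by the peak caller, had a median of 3.31, 3.39 and 3.14 in H3K27me3 NC, ΔLINC00641 and ΔSETD5-AS1 and of 3.02 and 3.14 in H3K9me3 NC and ΔLINC00662. Peaks away from start sites had medians between 3.14 and 3.35. By fold enrichment, lncRNA promoter peaks were therefore close to the remainder of each list. A −log10 q of at least 5 was reached by 34.2%, 38.3% and 31.5% of H3K27me3 promoter peaks, above the 26.2%, 29.8% and 26.5% of peaks away from start sites and below the 49.6%, 56.7% and 47.8% at protein-coding promoters. For H3K9me3 the share was 37.8% in NC and 29.3% in ΔLINC00662, beside 36.4% and 31.0% away from start sites. The median summit held 19 to 25 fragments, so the value of a single weak peak is imprecise.

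By −log10 q and within that input limit, LINC01586 carried the strongest H3K27me3 promoter peak of NC. It is transcribed from the minus strand of chr15:89128797-89148341, outside protein-coding genes and 16227 bp from the nearest coding start, that of AEN, an exonuclease gene. NC had a fold enrichment of 6.15, ΔLINC00641 of 8.66 and ΔSETD5-AS1 of 7.12, from 81 (64.3 to 101), 117 (96.8 to 140) and 87 (69.7 to 107) fragments at the summit. The peak spanned 7841 bp in NC, and LINC01586 had no H3K9me3 promoter peak in either list. NC held the lowest of its 3 values, though the fragment intervals of NC and ΔLINC00641 overlapped.

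THCAT155 lies antisense in an intron of PRMT8, which encodes a brain-enriched arginine methyltransferase. Its fold enrichment was 6.81, 6.28 and 5.12 in NC, ΔLINC00641 and ΔSETD5-AS1, from 72, 81 and 68 fragments. The antisense gene ADGRA1-AS1, in an intron of the adhesion receptor gene ADGRA1 and 567 bp from a coding start itself, had values of 7.29, 6.54 and 6.10. At ENSG00000285883, whose nearest coding gene is the synaptic vesicle gene SV2B, they were 7.34, 6.21 and 3.79. NC gave the highest and ΔSETD5-AS1 the lowest fold at all 3 of these genes. They had been ranked on NC values, so this order describes the chosen genes only.

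LINC01210 starts 7345 bp from SOX14, a transcription factor gene of the developing nervous system. NC gave a fold of 8.05, ΔLINC00641 4.16 and ΔSETD5-AS1 4.77. The summit held 50 (37.1 to 65.9), 53 (39.7 to 69.3) and 51 (38.0 to 67.1) fragments, which overlap almost fully. Local input was 1.38, 3.16 and 2.23 times the genome-wide level. The fragments are raw counts from lists with an estimated depth of 39.1 M, 38.1 M and 45.0 M, and the input levels carry no interval. The part of input in the folds at LINC01210 was not tested.

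ZNF32-AS1 held the strongest H3K9me3 promoter peak of NC by the same rule. It is antisense to ZNF32 on chr10:44139320-44140495, and the NC summit fell in the coding sequence of ZNF32, a zinc finger gene. Fold enrichment was 8.12 from 42 fragments (30.3 to 56.8) in NC and 4.49 from 22 fragments (13.8 to 33.3) in ΔLINC00662, and the intervals overlap slightly. At ENSG00000260920, near the zinc finger gene ZFP69, the strongest peaks had 6.30 and 4.34, but their summits lay apart (chr1:40929681 and chr1:40930790). The ΔLINC00662 peak beside the NC summit (chr1:40929675) had a fold of 3.602. At ENSG00000288995, in an intron of the zinc finger gene ZBTB43, the values were 5.80 and 3.05. At ENSG00000223944, nearest to ZC3H12A, they were 4.64 and 3.87. ENSG00000223944 also had an H3K27me3 promoter peak in ΔLINC00641 (3.10) and ΔSETD5-AS1 (3.73) but none in NC. All of these genes had been ranked by their NC values.

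**Figure D2:**
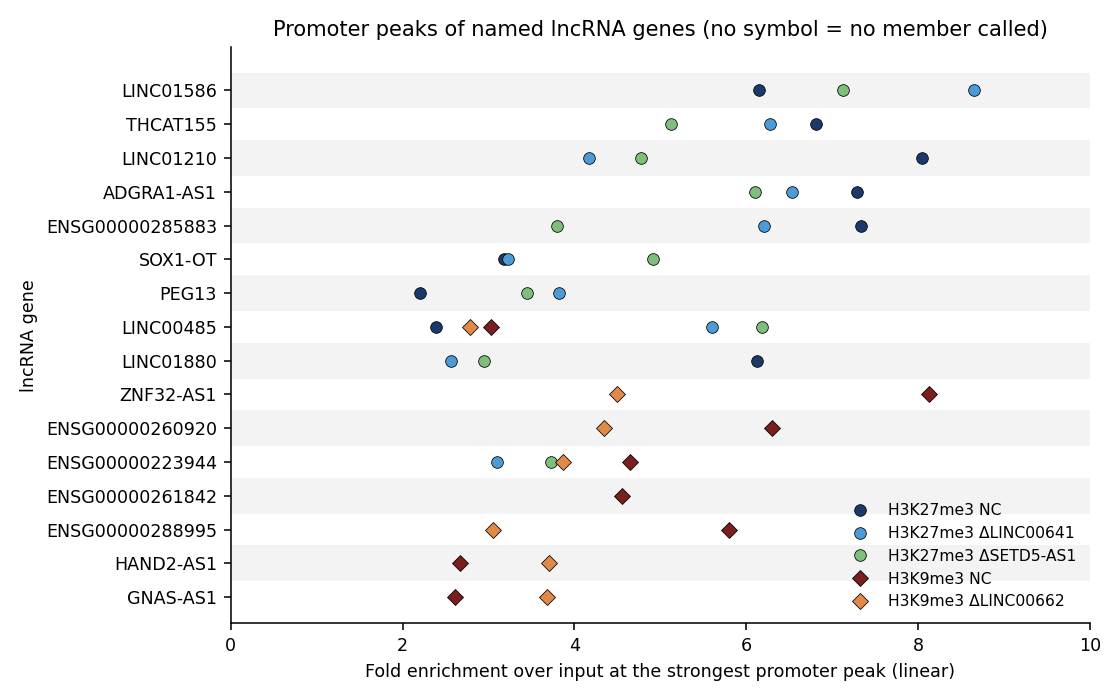
Linear fold enrichment over input (horizontal axis) at the strongest promoter peak of lncRNA genes described in the text (rows), with circles for H3K27me3 and diamonds for H3K9me3. A missing symbol means that no promoter peak was called. At LINC01586 NC lies lowest of the 3 H3K27me3 values at 6.15, at LINC01210 it lies highest at 8.05, and ENSG00000261842 has a symbol in H3K9me3 NC alone at 4.56.

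The marks differed in promoter sequence. A promoter, taken as 501 bp around the start site, was called CpG-rich at an observed-to-expected CpG ratio of at least 0.6. Of 1666 CpG-rich lncRNA promoters over 1 kb from coding starts, 4.44% (3.55 to 5.54%) carried H3K27me3 in NC and 11.4% (9.97 to 13.0%) carried H3K9me3. Of the 12647 other promoters, 5.04% and 4.74% (4.38 to 5.12%) did. H3K9me3 was thus found more often at CpG-rich than at other lncRNA promoters, and H3K27me3 was not. In ΔLINC00662, 10.8% (9.40 to 12.4%) of CpG-rich and 4.18% of other promoters carried H3K9me3. The CpG-rich shares for H3K27me3 were 5.10% in ΔLINC00641 and 4.56% in ΔSETD5-AS1. Among peaks, 68 of 822 lncRNA promoter summits of H3K27me3 NC (8.27%) and 159 of 837 of H3K9me3 NC lay in CpG-rich sequence. At protein-coding promoters the shares were 27.7% and 27.5%, and away from start sites 2.03% and 5.99%. H3K27me3 NC summits thus lay in CpG-rich sequence more often at lncRNA promoters than away from start sites. The higher share of H3K9me3 NC than of H3K27me3 NC was also seen away from start sites.

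Marked lncRNA promoters were mostly away from protein-coding genes. In H3K27me3 NC 632 of 822 summits (76.9%, 73.9 to 79.6%) lay outside every protein-coding gene, 175 in introns, 9 in coding sequence and 6 in other exon parts. In H3K9me3 NC 675 of 837 (80.6%, 77.8 to 83.2%) lay outside, 130 in introns, 10 in coding sequence and 22 in other exon parts. Peaks away from start sites lay outside coding genes in 68.5% and 64.4% of cases. Of the 14313 lncRNA genes over 1 kb from coding starts, 67.6% start outside coding genes, compared with 78.8% (75.6 to 81.6%) of those with H3K27me3 in NC and 82.1% (79.3 to 84.6%) of those with H3K9me3. Antisense starts made up 22.9% of all, 15.7% of H3K27me3 and 11.9% of H3K9me3 genes. The median distance to the nearest coding start was 58.3 kb over all, 167 kb at H3K27me3 and 69.0 kb at H3K9me3 genes in NC. It was 149 kb in ΔLINC00641, 161 kb in ΔSETD5-AS1 and 82.0 kb in ΔLINC00662.

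The chromosomes held unequal shares. Chromosome 5 had 106 of the H3K27me3 NC promoter peaks, 12.9%, while holding 15.4% of all peaks of that list, and chromosome 21 had 4. For H3K9me3 chromosome 19 led with 95 promoter peaks in NC, 11.4% against 6.26% of all peaks, and with 96 in ΔLINC00662, 13.0% against 7.62%. In NC these belonged to 84 of 744 lncRNA genes on chromosome 19 (11.3%), compared with 4.43% of lncRNA genes on all autosomes.

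Neighbouring coding genes separated the marks further. Here and for single genes, near and beside name the coding gene with the nearest 5′ end, at any distance. H3K9me3 stood in NC at 96 of 407 lncRNA promoters (23.6%, 19.7 to 27.9%) whose nearest coding gene is a ZNF zinc finger gene, and in ΔLINC00662 at 91 (22.4%, 18.6 to 26.7%), compared with 5.51% (5.15 to 5.90%) and 4.95% of all 14313. Of these genes 54 of 96 and 53 of 91 were on chromosome 19. H3K27me3 stood at 9 (2.21%, 1.17 to 4.15%), 10 (2.46%) and 7 (1.72%) of the same 407 in NC, ΔLINC00641 and ΔSETD5-AS1, below the 4.97% (4.63 to 5.34%), 4.83% and 5.24% of all 14313. The strongest after ZNF32-AS1 in NC were ENSG00000261842 near ZNF777 (4.56), ENSG00000283108 near ZNF266 (6.23 in NC, 2.89 in ΔLINC00662) and ENTPD1-AS1 near ZNF518A (4.13 and 4.08). The family examples without a place in the ranked lists were chosen after their values were seen.

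Beside protocadherins, cell adhesion genes of which many lie in arrays on chromosome 5, H3K9me3 was found at 19 of 74 lncRNA promoters (25.7%, 17.1 to 36.7%) in NC and at 16 (21.6%) in ΔLINC00662, and H3K27me3 at 3 in each list. Of the genes with H3K9me3, 9 of 19 in NC and 9 of 16 in ΔLINC00662 were on chromosome 5. On chromosome 4 there were 8 and 5, and on chromosome 13 there were 2 and 2. Examples were ENSG00000279375 beside PCDHB10, with a fold of 5.86 in NC and 4.67 in ΔLINC00662, and ENSG00000278936 beside PCDHB11, with 5.24 and 4.60. Both summits were in the coding sequence of a protocadherin. PCDH9-AS2 had 3.43 and 4.32, with an input of 5.40 and 3.22 times the genome-wide level.

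Beside olfactory receptor genes, which are silent outside olfactory tissue, H3K27me3 was the more frequent mark in NC. It was found at 22 of 119 lncRNA promoters (18.5%, 12.5 to 26.4%) in NC, and at 14 (11.8%) and 17 (14.3%) in the knockdowns of LINC00641 and SETD5-AS1, and H3K9me3 at 12 (10.1%) in both of its lists. Over all lncRNA promoters the H3K27me3 shares were 4.97%, 4.83% and 5.24%. The intervals of the marks overlap. The strongest were ENSG00000268673 near OR10H3, with 5.52, 5.13 and 3.77 in NC, ΔLINC00641 and ΔSETD5-AS1, and ENSG00000285561 near OR8B4, with 5.36, 4.36 and 4.60. Among the 12 with H3K9me3 in NC are DDX11L2 and DDX11L16, near chromosome ends, where input was 7.97 and 10.6 times the genome-wide level.

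Developmental transcription factor genes, a list added after the data had been seen, neighboured 474 lncRNA promoters. H3K27me3 was found at 39 (8.23%, 6.08 to 11.1%), 34 (7.17%) and 36 (7.59%) of them, beside 4.97% (4.63 to 5.34%), 4.83% and 5.24% of all. In NC 13 of the 39 were on chromosome 5 and 12 on chromosome 2, which held 15.4% and 9.70% of all H3K27me3 NC peaks. H3K9me3 was found at 34 (7.17%) and 37 (7.81%), beside 5.51% and 4.95% of all, and the intervals of the marks overlap. ENSG00000234595 beside NEUROD1, a neuronal differentiation factor gene, had an H3K27me3 fold of 5.78 in NC and 5.68 in ΔSETD5-AS1. No ΔLINC00641 summit met the rule there. An NC promoter peak with this fold overlapped a ΔLINC00641 peak of 5.48, so the missing call need not be a missing peak. A peak shared by CRMA and MIR1-1HG, the host gene of a muscle microRNA, had 4.46 in NC and 7.12 in ΔLINC00641. The NC peak overlapped a ΔSETD5-AS1 peak of 4.87. HOX genes neighboured 17 lncRNA promoters that met the distance condition, and no list had a peak at any of them, for which the Wilson upper bound of the share is 18.4%. Keratin genes neighboured 28, of which 0 to 1 were marked in each list.

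**Figure D3:**
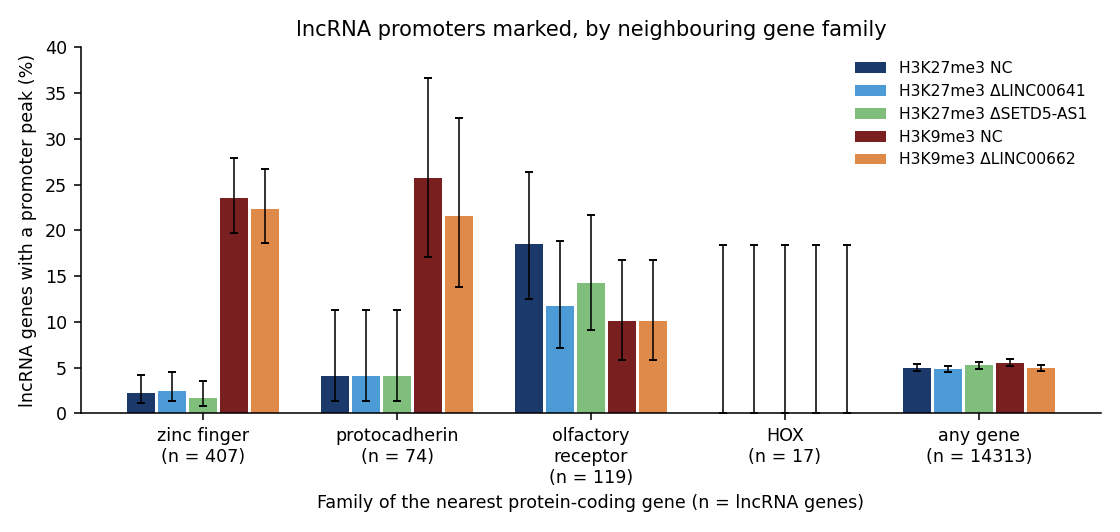
Percent of lncRNA genes with a promoter peak (vertical axis) by family of the nearest protein-coding gene (horizontal axis, n is the number of lncRNA genes), for the 5 lists. Bars start at 0 and error bars are Wilson 95% intervals. The H3K9me3 bars stand at 23.6% and 22.4% beside zinc finger genes against 5.51% and 4.95% for any gene, H3K27me3 is highest beside olfactory receptors, and no promoter beside a HOX gene was marked.

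Counts in the listed sets of lncRNA genes stand beside the share over all 14313 lncRNA genes that start over 1 kb from coding starts, 4.97% for H3K27me3 and 5.51% for H3K9me3 in NC. Of 18 HOX cluster lncRNAs such as HOTAIR and HOTTIP, 7 start over 1 kb from coding starts and 0 had a peak, as did 0 of 19 widely expressed lncRNAs such as MALAT1 and NEAT1, of which 13 met the distance condition. The 3 depleted RNAs, LINC00641, SETD5-AS1 and LINC00662, had no promoter peak that met the rule, and 2 of them met the distance condition. Of 31 lncRNAs beside developmental regulator genes, 11 met the distance condition. H3K27me3 was called at 3 of these 11 in NC and at 1 in each knockdown, and H3K9me3 at 2 in NC and 3 in ΔLINC00662.

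Those marked with H3K27me3 were SOX1-OT, RMST and FENDRR. SOX1-OT, whose gene spans the neural factor gene SOX1, had a fold of 3.18, 3.23 and 4.92 in NC, ΔLINC00641 and ΔSETD5-AS1, from 27, 34 and 34 fragments. RMST, a lncRNA linked to neurogenesis, had 3.71 in NC alone. FENDRR, divergent from the mesoderm factor gene FOXF1, had 2.03 in NC, and in the knockdowns the peaks in its window, of 3.54 and 2.99, had summits that did not meet the rule. FENDRR thus left the count without leaving the peak lists.

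Those with H3K9me3 were HAND2-AS1 with 2.67 in NC and 3.71 in ΔLINC00662, SOX21-AS1 with 2.18 and 2.38, and RMST with 3.20 in ΔLINC00662 alone. HAND2-AS1 starts beside HAND2, a heart and limb factor gene, and its NC summit was in HAND2 coding sequence. Input there was 5.18 and 3.65 times the genome-wide level, and 5.96 and 5.11 times at SOX21-AS1, so both genes sit where input itself was rich in fragments.

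Of 18 imprinted lncRNAs 13 are annotated on the autosomes as lncRNAs, and 11 of these met the distance condition. Over the 5 lists together 3 of the 13 carried a peak, beside 2076 of all 18229 annotated lncRNA genes. For NC alone, H3K27me3 was called at 1 and H3K9me3 at 1. PEG13, expressed from the paternal copy within TRAPPC9, had an H3K27me3 fold of 2.21 in NC against 3.82 in ΔLINC00641 and 3.44 in ΔSETD5-AS1, from 32 (21.9 to 45.2), 42 (30.3 to 56.8) and 38 (26.9 to 52.2) fragments. PWRN1, of the Prader-Willi region, had 3.10 in ΔLINC00641 alone. GNAS-AS1, antisense at the GNAS imprinted locus, had an H3K9me3 fold of 2.61 in NC and 3.68 in ΔLINC00662. All fragment intervals at PEG13 overlapped.

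Both marks were called in NC at 98 lncRNA genes, which is 13.4% (11.1 to 16.1%) of the 731 with H3K27me3 and 12.1% (10.1 to 14.6%) of the 807 with H3K9me3. Of H3K27me3 NC promoter peaks, 97 (11.8%, 9.77 to 14.2%) overlapped an H3K9me3 peak by at least 1 bp, against 9.93% of all H3K27me3 NC peaks. In the other direction 97 (11.6%, 9.59 to 13.9%) did, against 9.93% of all H3K9me3 NC peaks. The overlap at lncRNA promoters was near that of the lists as a whole. Merged cultures cannot tell whether both marks sit on the same allele or in different cells.

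The 5 genes with the best support for both marks in NC were ENSG00000281904, ENSG00000288959, ENSG00000285529, LINC00839 and ENSG00000290701. ENSG00000290701, near the olfactory receptor gene OR7A10, had a fold of 3.99 for H3K27me3 and 6.05 for H3K9me3. LINC00839, near ZNF33B, had 5.36 and 3.03, and ENSG00000285529 had 4.74 and 4.20. At LINC00839 the H3K27me3 (chr10:42971861) and H3K9me3 (chr10:42970768) summits of NC lay apart. They also did at ENSG00000285529 (chr10:132324366 and chr10:132323623). At ENSG00000281904 the folds were 3.49 and 5.23 with an input of 4.58 and 1.33 times the genome-wide level, and at ENSG00000288959 they were 3.03 and 3.61 with 4.37 and 4.74 times. In all, 365 lncRNA genes had an H3K27me3 promoter peak in each of the 3 lists, of 1167 with one in any, and 402 had H3K9me3 in both lists, of 1127.

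Upon depletion of LINC00641, 296 of 822 NC promoter peaks (36.0%) had no overlapping peak and were counted as lost, beside 48.4% of all NC peaks on chromosomes 1 to 22. New peaks were 269 of 805 (33.4%, 30.2 to 36.7%), beside 34.3% of the whole ΔLINC00641 list. The remaining 526 NC promoter peaks (64.0%, 60.7 to 67.2%) were found, compared with 50.7% of NC peaks away from start sites and 75.3% of those at protein-coding promoters. Weighted to the strength groups of the lncRNA promoter peaks, peaks away from start sites were found in 54.0%, and in 60.0% when weighted to their GC content as well. Lost peaks were weaker, with a median −log10 q of 3.12 against 4.74 for those found, and 104 of the 296 had a ΔLINC00641 peak within 1000 bp.

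Counted by gene, H3K27me3 stood at 731 lncRNA promoters in NC and 714 in ΔLINC00641, a ratio of 0.977, and the list of all autosomal peaks was 0.798 times as long. Of the 731, 264 (36.1%) lacked a promoter peak in ΔLINC00641, beside 26.6% of lncRNA and protein-coding genes together that had an NC summit within 1 kb of the 5′ end, and 247 of the 714 (34.6%) were new, beside 30.2%. Of the 264, 68 still had a ΔLINC00641 peak that reached within 1 kb of the start, and 196 had none. Of the 247 new ones, 87 had such a peak in NC. When the −log10 q had to reach 5, the gene ratio was 1.08 and the ratio of promoter peaks 1.10, so their direction depended on the threshold.

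The lost genes with the largest −log10 q were ENSG00000254361 on chromosome 8 (fold 5.09 in NC), ENSG00000231863 near MAP3K4 (4.0) and ENSG00000260626 (4.10). Each rested on 25 or 26 fragments. New ones were LINC01070 near SOX1 (5.34), NBAT1 (3.93), a lncRNA that has been studied in neuroblastoma, and ENSG00000248969 near the cytokine receptor gene IL7R (4.55), from 34, 39 and 25 fragments. Of the lost genes, ENSG00000254361 had a promoter peak with a fold of 3.42 in ΔSETD5-AS1.

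Upon depletion of SETD5-AS1, 309 of 822 NC promoter peaks (37.6%) were lost, beside 45.0% of all, and 319 of 854 (37.4%, 34.2 to 40.6%) were new, beside 39.5% of all. The 513 found (62.4%, 59.0 to 65.7%) compare with 54.3% away from start sites and 70.8% at protein-coding promoters, and with 57.4% and 61.6% away from start sites under the weights for strength and for strength and GC content. The median −log10 q was 3.14 for lost and 4.82 for found peaks, and 140 of the lost lay within 1000 bp of a ΔSETD5-AS1 peak. This comparison uses the same NC list as that with ΔLINC00641, so the values stand side by side and are not independent.

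By gene, 774 lncRNA promoters were marked in ΔSETD5-AS1 and 731 in NC, a ratio of 1.06. The list of all autosomal peaks was 0.935 times as long. The ΔSETD5-AS1 list also had the largest depth, 45.0 M fragments against 39.1 M in NC. The gene ratio was 0.936 when the −log10 q had to reach 5. For promoter peaks it was 0.957 there and 0.976 within 2000 bp, so the direction depended on these choices. Of the 731, 262 (35.8%) were lost, beside 30.8% over lncRNA and protein-coding genes, and 305 of 774 (39.4%) were new, beside 31.1%. A ΔSETD5-AS1 peak still reached within 1 kb of the start at 77 of the 262, and an NC peak did so at 85 of the 305. The leading lost genes were LINC01467 (4.95), ENSG00000229550 (4.74) and ENSG00000231863. LINC01467 had a fold of 3.01 in ΔLINC00641 and carried H3K9me3 in both lists, at 3.27 and 2.77. The leading new ones were ENSG00000286473 (5.70), ENSG00000226861, whose nearest coding gene is the T cell factor gene GATA3 (3.49), and LINC01070 (4.25).

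Upon depletion of LINC00662, 456 of 837 H3K9me3 NC promoter peaks (54.5%) were lost, beside 62.0% of all, and 324 of 738 (43.9%, 40.4 to 47.5%) were new, beside 44.7% of all. The 381 found (45.5%, 42.2 to 48.9%) compare with 37.6% away from start sites and 51.8% at protein-coding promoters. Under the weights for strength, and for strength and GC content, peaks away from start sites were found in 38.3% and 47.3%. Median −log10 q was 3.70 for lost and 5.05 for found peaks, and ΔLINC00662 was the shallowest list with 34.6 M fragments against 42.2 M in NC.

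By gene, H3K9me3 stood at 807 lncRNA promoters in NC and 722 in ΔLINC00662, a ratio of 0.895. The list of all autosomal peaks was 0.723 times as long. The gene ratio was 0.683 when the −log10 q had to reach 5. Of the 807, 405 (50.2%) were lost, beside 48.0% over lncRNA and protein-coding genes, and 320 of 722 (44.3%) were new, beside 39.1%. A ΔLINC00662 peak still reached within 1 kb of the start at 54 of the 405, and an NC peak did so at 64 of the 320. Beside zinc finger genes 65 of 96 (67.7%, 57.8 to 76.2%) were kept and 26 were new, and beside protocadherins 12 of 19 (63.2%, 41.0 to 80.9%) were kept. ENSG00000261842 near ZNF777 led the lost genes with a fold of 4.56 from 64 fragments (49.3 to 81.7) in NC and no peak in its window in ΔLINC00662. It was followed by ENSG00000249742 (5.64) and ENSG00000251567 (3.40), the latter with an input of 4.08 times the genome-wide level. New ones were LINC00353 (5.94), ENSG00000290971 (5.33) and ENSG00000286125 antisense near ZNF835 (5.01), from 33, 23 and 24 fragments.

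Peak strength went with being found again. In the weakest of 10 groups of NC peaks ranked by −log10 q, 23 of 69 lncRNA promoter peaks (33.3%) were found in ΔLINC00641, and in the strongest 121 of 124 (97.6%). In ΔSETD5-AS1 these were 21 of 69 (30.4%) and 116 of 124 (93.5%). For H3K9me3 in ΔLINC00662 they were 31 of 98 (31.6%) and 71 of 96 (74.0%). Peaks away from start sites in the strongest group were found in 88.3%, 89.4% and 73.8%.

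**Figure D4:**
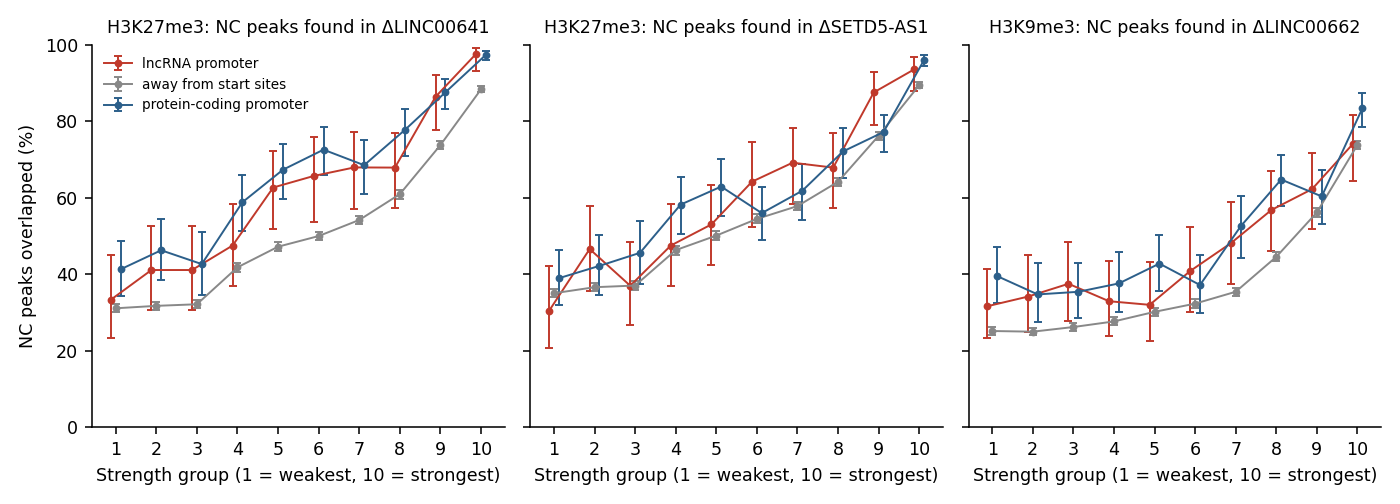
Percent of NC peaks overlapped by a peak of the knockdown list (vertical axis) in 10 groups of NC peaks ranked by −log10 q (horizontal axis), for lncRNA promoters, protein-coding promoters and peaks away from start sites. Error bars are Wilson 95% intervals. At lncRNA promoters the share goes from 33.3% to 97.6% in ΔLINC00641, from 30.4% to 93.5% in ΔSETD5-AS1 and from 31.6% to 74.0% in ΔLINC00662.

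GC content moved with the same share. From the lowest to the highest of 5 GC groups, the share of lncRNA promoter peaks found was 27.6% and 81.2% in ΔLINC00641, 31.2% and 72.2% in ΔSETD5-AS1 and 31.3% and 56.6% in ΔLINC00662. All peaks gave 26.8% and 77.0%, 33.1% and 73.0%, and 19.3% and 62.7%. The part of GC content in the losses was not tested.

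Where a promoter peak paired with exactly 1 peak of the other list, fold enrichment differed little on balance. Lost and new peaks have no pair, so these ratios describe only peaks called in both lists. Fold enrichment is a ratio to input within each list and does not measure the total amount of a mark. Over 355 pairs the median log2 ratio, ΔLINC00641 over NC, was 0.02 (-0.03 to 0.07), with 21 pairs (5.92%) over 1.5-fold lower and 21 (5.92%) over 1.5-fold higher, beside 6.33% and 7.02% of all pairs. Its sign turned to -0.04 when the −log10 q of both peaks had to reach 5, and also with equal numbers of strongest peaks. For ΔSETD5-AS1 it was -0.09 (-0.15 to -0.06) over 337 pairs, with 39 (11.6%) lower and 13 (3.86%) higher, beside 8.79% and 4.21%, and a median of -0.08 over all pairs. The lower fold in ΔSETD5-AS1 was thus shared with the whole list. For H3K9me3 in ΔLINC00662 the median was 0.07 (-0.02 to 0.13) over 320 pairs, with 26 (8.13%) lower and 33 (10.3%) higher, beside 8.83% and 10.4%. It became -0.08 with equal numbers of strongest peaks.

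**Figure D5:**
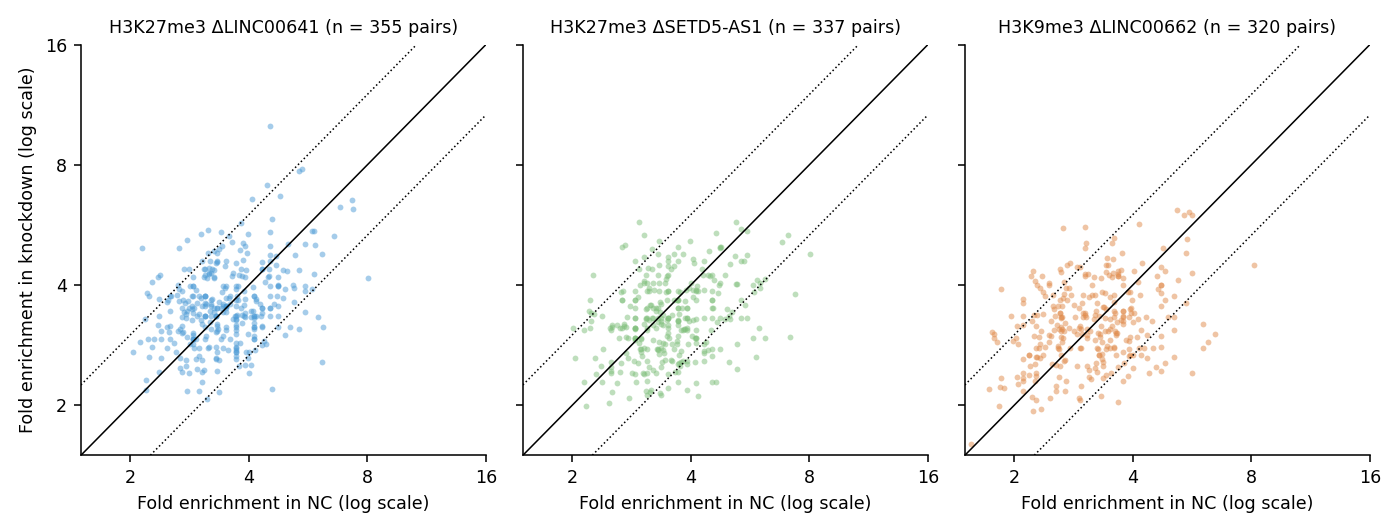
Fold enrichment in the knockdown (vertical axis, log scale) against NC (horizontal axis, log scale) for lncRNA promoter peaks that pair with exactly 1 peak, 355, 337 and 320 pairs. The solid line marks equality and dotted lines a 1.5-fold difference. Most points lie between the dotted lines, with 21 below and 21 above in ΔLINC00641, 39 and 13 in ΔSETD5-AS1 and 26 and 33 in ΔLINC00662.

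The genes at the ends of the fold range were picked by their ratios and are given as a description. Lowest in both H3K27me3 knockdowns was LINC01880, near the end of chromosome 2, with 6.13 in NC against 2.57 in ΔLINC00641 and 2.94 in ΔSETD5-AS1, from 39 (27.7 to 53.3), 29 (19.4 to 41.6) and 26 (17.0 to 38.1) fragments. LINC01210, ENSG00000286434, LINC02376 and LINC02624 followed. At LINC02624 the folds were 5.98, 3.77 and 2.94. The ΔSETD5-AS1 summit there (chr10:107900645) lay beside another NC summit (chr10:107900685), which had a fold of 6.18. Input at LINC01880 was 1.43, 2.83 and 1.84 times the genome-wide level.

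Highest was LINC00485, with 2.39, 5.61 and 6.19 from 23 (14.6 to 34.5), 31 (21.1 to 44) and 35 (24.4 to 48.7) fragments. Its ΔSETD5-AS1 summit (chr12:103217821) lay apart from those of NC (chr12:103218859) and ΔLINC00641 (chr12:103218960). Input at these summits was 2.34, 1.24 and 1.09 times the genome-wide level in NC, ΔLINC00641 and ΔSETD5-AS1. LINC02914 (nearest coding gene BCL11B), ENSG00000288110 in an intron of CSMD1, PEG13 and ENSG00000258723 in an intron of NRXN3 followed, with 2.96, 4.74 and 5.76 at LINC02914. At 4 of these 5 genes, all but ENSG00000288110, input was lower in both knockdowns than in NC. At ENSG00000258723 the NC (chr14:78748997) and ΔSETD5-AS1 (chr14:78750678) summits also lay apart. The part of input and of summit position in these ratios was not tested.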

How the data were processed

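H3K27me3 and H3K9me3 ChIP-seq peaks of HEK293T cells were used. As the methods of the study state, adapters were removed by the authors (Cutadapt 3.3), reads were placed on hg19 (Bowtie2 2.4.2), duplicates were dropped (GATK MarkDuplicates), the 3 replicates per group were merged, and MACS2 2.2.7.1 called peaks against merged input. The authors deposited for each peak the fold enrichment, a ratio of ChIP to local input at the summit, the −log10 p-value, the −log10 q-value and the summit offset. Samples were grouped by their titles.

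Summits were placed with GENCODE 44 lifted to GRCh37. Fragments at the summit and local input were solved from the fold and the −log10 p-value, within a relative tolerance of 0.001 for 99.86% or more of the peaks of each list, and their lowest input is the genome-wide level. Summits at the lowest input level held at least 11 fragments. Overlap needed 1 bp. Shares carry Wilson 95% intervals, fragments exact Poisson intervals and medians binomial order-statistic intervals. They take peaks as independent, although 29 promoter peaks of H3K27me3 NC and 40 of H3K9me3 NC served more than 1 lncRNA gene.

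Named genes are those of the listed sets with a peak, the 5 strongest per mark in NC, the 3 strongest lost and new ones per comparison without a peak over or within 1000 bp of the start, the 5 strongest with both marks, and the 5 with the lowest and highest folds in both H3K27me3 knockdowns, at an input of at most 5 times the genome-wide level. The promoter peaks, gene lists and rules were chosen with earlier results of these data known. SETD5-AS1 was looked up as THUMPD3-AS1, of which RefSeq lists it as a synonym. Alternatives were other start site distances, all lncRNA transcripts as start sites, equal numbers of strongest peaks, peaks whose −log10 q reached 5, and an overlap of 50% or a distance of 1000 bp. Functions were tested on simulated data. Tools were samtools 1.23.1 and Python 3.11.15 with matplotlib 3.10.9, pysam 0.24.0, scipy 1.17.1, pandas 2.3.3 and numpy 2.4.6. Sequences on chromosome 8 and those of 2 other windows are not reported here.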

Additional observations from a re-analysis of the deposited data

How the results depend on the processing

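No paired analysis was possible because each group has 1 pooled list, and for that reason no replicate was left out either. Differences between lists thus have no replicate error, and a peak of about 20 fragments is imprecise. In total 153 alternatives were computed, of which 92 remained within 1.5 times or the interval of the value given, 53 fell outside it and 8 turned direction. Leaving out input-rich peaks and using the starts of protein-coding genes alone moved none of the values tested. The cause of a move was not tested, except where a shorter or longer distance or a stricter threshold changes the number of peaks by construction.

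Values follow the order H3K27me3 NC, ΔLINC00641, ΔSETD5-AS1, H3K9me3 NC, ΔLINC00662. Within 500 bp of the start there were 468, 452, 490, 468 and 415 promoter peaks at 471, 455, 493, 476 and 426 genes, and 34 genes had both marks in NC. Within 2000 bp there were 1580, 1420, 1542, 1576 and 1361 peaks, at 1369 genes in H3K9me3 NC and 1187 in ΔLINC00662. When the −log10 q had to reach 5, there were 281, 308, 269, 316 and 216 peaks at 281, 304, 263, 319 and 218 genes, and 10 genes had both marks. With the starts of all lncRNA transcripts, H3K27me3 NC had 1249 peaks. The ratio of promoter peaks to NC became 1.10 for ΔLINC00641 and 0.957 for ΔSETD5-AS1 at a −log10 q of at least 5, and 0.976 for ΔSETD5-AS1 within 2000 bp. The gene ratios became 1.08 and 0.936 at that threshold.

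For ΔLINC00641, ΔSETD5-AS1 and ΔLINC00662, an overlap of at least 50% gave a retained share of 47.7%, 42.6% and 30.8% and a new share of 48.7%, 51.8% and 54.7%. Asking only for promoter peaks whose −log10 q reached 5 gave 87.5%, 85.4% and 60.8% retained and 12.7%, 12.3% and 22.7% new. Counting any peak within 1000 bp gave 76.6%, 79.4% and 60.6% retained and 20.1%, 24.2% and 33.1% new. With equal numbers of the strongest peaks, ΔLINC00641 had 69.5% retained and 39.1% new, and ΔLINC00662 49.8% and 53.5%. The median log2 ratio of fold enrichment for ΔLINC00641 was 0.10 with summit fragments over the genome-wide level, -0.038 where the −log10 q of both peaks reached 5 and -0.0025 with equal numbers of the strongest peaks, a choice that gave -0.081 for ΔLINC00662.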
